A study of Mus musculus with 12 samples.

Results

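The 37 genes described here act in cell division, and they were taken by symbol from the 25124 genes of the deposited expression table, where each of the 37 has 1 row. They were chosen by function, with earlier results of these data known, and fall into 10 replication genes, 12 mitosis genes, 7 cyclins and kinases of S and M phase, the 3 D-type cyclins with their kinase Cdk4, and 4 inhibitors of cyclin-dependent kinases. RNA was sequenced from brown adipose tissue (BAT), the heat-producing fat, of 10-week-old male mice that carried or lacked Txnip, which encodes thioredoxin-interacting protein. The deletion was in the whole body, so every cell type of the fat pad carried it, and the tissue was sequenced as a whole. The 4 groups hold 3 libraries each. RT WT are wild-type mice kept at room temperature, 23 °C, and RT Txnip-/- are knockout mice at 23 °C. TN WT and TN Txnip-/- are the same genotypes after 1 week at thermoneutrality, 30 °C, a temperature at which a mouse needs little heat from BAT. The mice shared a C57B/6J background and received no other agent. The sources used here do not tie the libraries to single animals, so the p-values below measure the spread between libraries.

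In a dividing cell, D-type cyclins with Cdk4 start the release of E2F transcription factors from the retinoblastoma proteins, and E2F then drives the genes of DNA replication. The mitosis genes are switched on later, largely through promoter elements bound by the DREAM and MuvB complexes, and the kinase inhibitors p21, p27, p57 and p18 hold the kinases back. Mature brown adipocytes hardly divide, while preadipocytes, endothelial cells and immune cells of the same fat pad can.

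Letters known from these layers of control were looked for in promoter sequence. RefSeq promoters of build GRCm38.p6, each 300 bases from 250 before to 50 after the start site, were at hand for 29 of the 37 genes. Motifs were searched on both strands. E2F was taken as TTCCCGC and, in a second form of the site, as TTGGCGC. The cell cycle homology region, or CHR, was taken as TTTGAA, and the CCAAT box by its name. E2F and CCAAT letters can overlap, as they do in Ccnb1. The promoters below show the contrast between a replication gene, 2 genes of mitosis, the mitotic kinase and the inhibitor that moved against the rest. All bases are in lower case but those of a motif, which are in capitals, and a motif on the other strand shows as its reverse complement. Mcm6 lies at chr1:128359656-128359955 on the minus strand, Mki67 at chr7:135716330-135716629 (minus), Top2a at chr11:99024140-99024439 (minus), Cdk1 at chr10:69352863-69353162 (minus) and Cdkn1a at chr17:29093519-29093818 (plus).
Mcm6: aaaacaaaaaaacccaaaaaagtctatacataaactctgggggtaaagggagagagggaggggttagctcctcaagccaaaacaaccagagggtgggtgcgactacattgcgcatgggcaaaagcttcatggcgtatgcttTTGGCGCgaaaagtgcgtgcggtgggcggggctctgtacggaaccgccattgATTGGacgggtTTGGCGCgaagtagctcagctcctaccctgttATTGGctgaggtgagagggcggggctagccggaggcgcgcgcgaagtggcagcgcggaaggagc
Mki67: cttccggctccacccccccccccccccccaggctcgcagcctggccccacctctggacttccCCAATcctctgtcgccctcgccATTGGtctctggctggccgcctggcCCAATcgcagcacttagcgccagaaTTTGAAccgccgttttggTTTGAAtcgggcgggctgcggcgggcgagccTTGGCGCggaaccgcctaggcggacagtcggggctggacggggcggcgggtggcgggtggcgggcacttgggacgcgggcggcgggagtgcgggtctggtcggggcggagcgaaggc
Top2a: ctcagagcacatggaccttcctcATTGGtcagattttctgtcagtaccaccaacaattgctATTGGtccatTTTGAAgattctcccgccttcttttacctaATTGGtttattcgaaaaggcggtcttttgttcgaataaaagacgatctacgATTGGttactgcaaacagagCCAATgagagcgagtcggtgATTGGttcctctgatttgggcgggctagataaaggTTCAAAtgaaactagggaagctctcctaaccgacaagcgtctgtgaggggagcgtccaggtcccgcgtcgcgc
Cdk1: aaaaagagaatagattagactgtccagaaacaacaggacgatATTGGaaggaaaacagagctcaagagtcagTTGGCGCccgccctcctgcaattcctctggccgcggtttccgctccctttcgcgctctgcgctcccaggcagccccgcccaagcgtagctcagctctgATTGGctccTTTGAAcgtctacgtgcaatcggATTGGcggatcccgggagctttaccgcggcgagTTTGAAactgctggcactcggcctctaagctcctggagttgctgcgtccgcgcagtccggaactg
Cdkn1a: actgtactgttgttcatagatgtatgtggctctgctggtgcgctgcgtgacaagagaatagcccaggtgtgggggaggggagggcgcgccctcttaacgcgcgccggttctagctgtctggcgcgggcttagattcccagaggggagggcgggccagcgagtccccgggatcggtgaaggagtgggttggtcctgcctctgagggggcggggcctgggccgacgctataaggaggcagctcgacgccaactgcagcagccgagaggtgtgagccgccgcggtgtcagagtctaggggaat

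The Mcm6 promoter holds 2 E2F motifs and no CHR, those of Mki67 and Cdk1 hold both kinds, that of Top2a holds 2 CHR motifs, and that of Cdkn1a holds none of them. An E2F motif stood in 31% of the 29 promoters against 6.81% of all 32851 promoters of this length, and in 5 of the 9 replication promoters. A CHR together with a CCAAT box stood in 7 of the 10 mitosis promoters, in 1 of the 9 replication promoters and in 6.95% of all promoters. A CCAAT box, with or without another motif, was found in 24 of the 29, against 37.4% of all. A match is a description of these letters and was not tested as a site. Aurkb, Tpx2, Ccna2, Ccne2, Ccnd1, Ccnd2, Cdkn1c and Mcm4 had no entry.

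**Figure D1:**
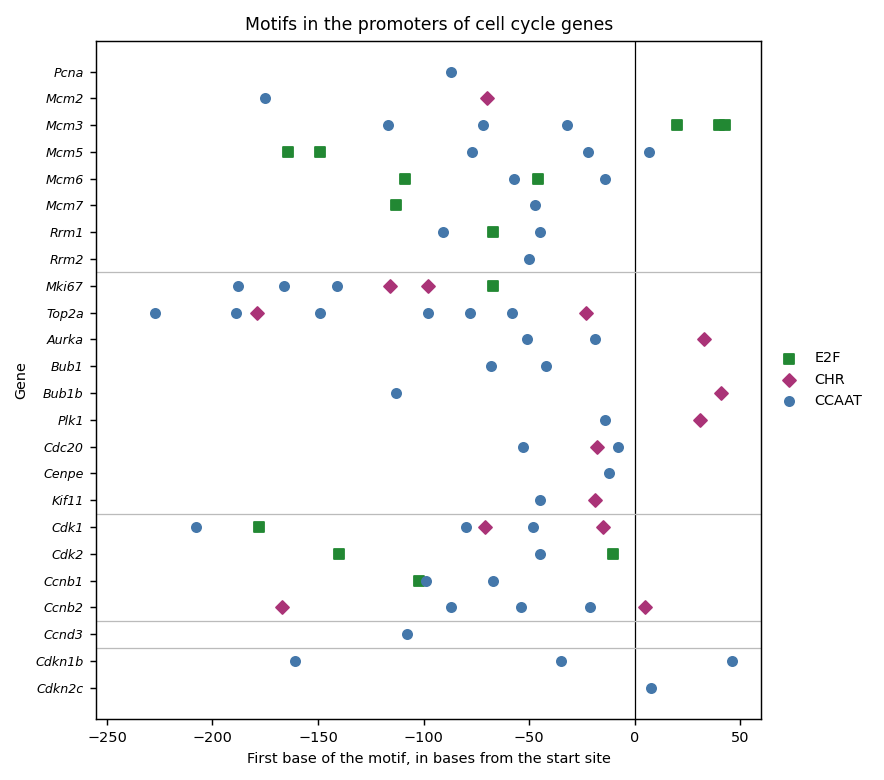
Positions of E2F, CHR and CCAAT motifs in the promoters of the genes that hold at least 1 of them; the x axis gives the first base of each motif in bases from the start site (vertical line), and rows are genes grouped by role. E2F motifs lie in 5 replication genes, Mki67, Cdk1, Cdk2 and Ccnb1, and CHR motifs in 7 mitosis genes, Mcm2, Cdk1 and Ccnb2.

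Levels are in TPM, which scales reads by transcript length and by library and so allows genes to be compared. Over the 12 libraries the mean level of the 37 genes ran from 0.213 TPM for Bub1 to 83.3 TPM for Cdkn2c. The inhibitors, Cdk4, Ccnd3, Pcna and Cdk2 were the 8 genes at 10 TPM or more, and 11 genes, all of them mitosis genes or mitotic cyclins and kinases, were under 1 TPM. No gene was at 0 in any library. The reads behind the TPM could be recovered as whole numbers, and a library held between 3 reads (Aurkb, in 1 RT WT library) and 4227 reads (Cdkn1a) of a gene, so the low mitosis genes rest on few reads per library. Because of this, 2 tests were set side by side. The main test was limma on log2(TPM + 1) for genes with a mean of at least 1 TPM in the libraries compared, which leaves out the lowest genes and understates the change of low ones, and the other was limma-voom on the recovered reads, chosen after the data were seen, which reached all 37. A call needed a log2 fold change beyond 0.32 in either direction and a Benjamini-Hochberg adjusted p under 0.05 over all genes tested. Log2 fold changes are given ± SE.

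**Figure D2:**
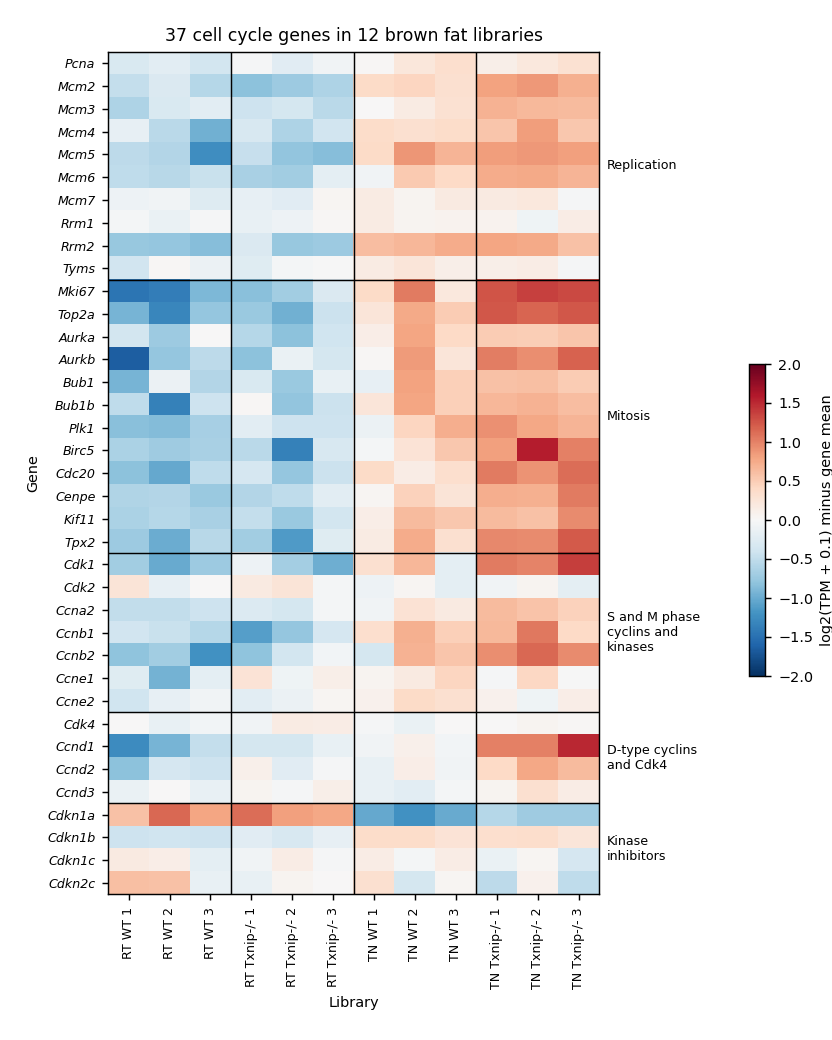
Level of each of the 37 genes (rows, grouped by role) in each of the 12 libraries (columns), as log2(TPM + 0.1) minus the mean of that gene over the libraries. Mitosis genes run from blue in the RT libraries to red in the TN Txnip-/- libraries, and Cdkn1a runs the other way.

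Txnip itself followed the labels. It stood at 564, 581 and 694 TPM in RT WT, 24.8, 26.9 and 35.4 in RT Txnip-/-, 1238, 1083 and 1072 in TN WT and 11.02, 14.4 and 10.5 in TN Txnip-/-. Its level was lower in the knockout at both temperatures, by log2 fold changes of -4.36 ± 0.14 (adjusted p = 5e-05) at RT and -6.46 ± 0.12 (adjusted p = 1.97e-07) at TN. Libraries of 1 group correlated with r between 0.985 and 0.993 on the log scale over 12486 genes, and the first principal component, 61.8% of the variance, parted the RT from the TN libraries. Reads recovered in genes ran from 19192444 to 29230425 per library.

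Many of these genes were higher at 30 than at 23 °C in both genotypes, and how many were called depended on the test, the filter and the scaling. Of the 37, 26 passed the level filter in the temperature comparisons. In WT mice, 17 of them rose and 1 fell at TN, where 31.4% of the 12486 genes tested rose and 6.39% fell. In Txnip-/- mice, 14 rose and 1 fell, against 30.9% and 8.27% of all genes. The filter let some genes pass through the TN libraries alone, where they are high. Top2a, Birc5, Bub1b, Mcm5 and Rrm2 had a mean under 1 TPM at RT in both genotypes, and Aurka did so in Txnip-/-, and each of these is among the genes counted as risen. Among genes with a mean of at least 1 TPM at both temperatures, 12 of 21 members rose and 1 fell in WT (29.3% and 6.58% of 11812 genes), and 8 of 20 rose and 1 fell in Txnip-/- (29.3% and 8.39% of 11898). All 15 called in the knockout were among the 18 called in WT, which is 83.3% of the WT list. On recovered reads, with all 37 tested, 27 rose and 1 fell in WT (28.5% and 8.93% of 15067 genes), and 25 rose and 1 fell in Txnip-/- (32.1% and 9.7%). Here Aurkb and Bub1 in WT and Ccnb1 in Txnip-/- had means under 10 reads at RT and passed through other libraries. Among genes with a mean of at least 10 reads at both temperatures, 25 of 35 rose and 1 fell in WT (27.1% and 9.29% of 14245 genes), and 24 of 36 rose and 1 fell in Txnip-/- (31.6% and 10% of 14404). The median log2 fold change of the 37 on that scale was 0.76 in WT and 1.13 in Txnip-/-, beside 0.18 and 0.19 for all genes tested. Counting overlap alone, the TN libraries lay above all RT libraries for 30 of the 37 in WT (48.8% of 15041 genes) and for 26 of 37 in Txnip-/- (47.4% of 15068), and under them for 1 in each genotype (10.2% and 14.4% of all genes).

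TPM shifted as a whole between the temperatures: the median tested gene was 0.18 higher at TN in WT and 0.15 higher in Txnip-/- on the log2 scale of the main test. Relative to that shift, 19 of the 26 tested members lay above the median gene in WT and 16 of 26 in Txnip-/-. With each library centred on its own median, 9 members rose and 1 fell in WT and 14 rose and 3 fell in Txnip-/-, the added falls being Cdk2 and Cdkn1c. The 8 WT calls lost with this centring were those of Pcna, Mcm3, Aurka, Birc5, Ccna2, Ccne1, Ccne2 and Ccnd2. With libraries scaled to the upper quartile, the counts were 16 and 1 in WT and 14 and 1 in Txnip-/-. Over all genes, the calls in WT were 3919 higher and 798 lower in the main test, 2867 and 1205 with upper-quartile scaling, and 1926 and 1841 with median centring. In Txnip-/- they were 3858 and 1033, 3207 and 1455, and 2294 and 2435.

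Among the replication genes, 7 of 10 rose in WT and 6 of 10 in Txnip-/-, where 31.4% and 30.9% of all genes did, and in both genotypes the count holds Mcm5 and Rrm2, which passed the filter through the TN libraries. Mcm2 to Mcm6 are subunits of the helicase that unwinds DNA ahead of the replication fork. Mcm2 stood at 1.29, 1.49 and 1.201 TPM in RT WT, 0.996, 1.07 and 1.16 in RT Txnip-/-, 2.42, 2.52 and 2.32 in TN WT and 3.299, 3.42 and 3.07 in TN Txnip-/-. Every TN library lay above every RT library, and at TN the knockout libraries lay above the WT libraries. The log2 fold change of Mcm2 with temperature was 0.56 ± 0.09 (adjusted p = 0.000478) in WT and 1.04 ± 0.09 (adjusted p = 1.04e-05) in Txnip-/-. Mcm5 stood at 1.09, 1.04 and 0.626 TPM in RT WT, 1.15, 0.9000 and 0.854 in RT Txnip-/-, 2.13, 3.06 and 2.64 in TN WT and 2.96, 3.04 and 2.94 in TN Txnip-/-. It rose by 0.91 ± 0.13 (adjusted p = 0.000274) in WT and 1.02 ± 0.13 (adjusted p = 7.65e-05) in Txnip-/-, and its temperatures did not overlap in either genotype.

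The other 3 called helicase subunits moved the same way. Mcm3 stood at 1.73, 2.19 and 2.33 TPM in RT WT, 2.01, 2.101 and 1.85 in RT Txnip-/-, 2.73, 3.07 and 3.38 in TN WT and 4.45, 4.34 and 4.29 in TN Txnip-/-. Mcm4 stood at 3.55, 2.73 and 2.01, 3.199, 2.57 and 3.05, 5.17, 5.04 and 5.21 and 5.93, 7.198 and 5.87 TPM in the same groups. Mcm6 stood at 2.21, 2.15 and 2.303, 2.004, 1.93 and 2.78, 3.03, 4.63 and 4.203 and 5.36, 5.45 and 5.17 TPM. For all 3 the TN libraries of a genotype lay above its RT libraries. The rise in WT was 0.40 ± 0.10 for Mcm3, 0.73 ± 0.13 for Mcm4 and 0.61 ± 0.13 for Mcm6, and the rise in Txnip-/- was 0.84 ± 0.10, 0.89 ± 0.13 and 0.98 ± 0.13. Without RT WT replicate 1 the rise of Mcm3 in WT was 0.31 with an adjusted p of 0.021, under the fold threshold.

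Rrm2, the subunit of ribonucleotide reductase that limits the making of deoxynucleotides in S phase, had the largest rise of the replication genes in WT. It stood at 0.823, 0.819 and 0.769 TPM in RT WT, 1.18, 0.827 and 0.842 in RT Txnip-/-, 2.31, 2.395 and 2.51 in TN WT and 2.595, 2.54 and 2.25 in TN Txnip-/-. It rose by 0.92 ± 0.10 (adjusted p = 7.48e-05) in WT and 0.83 ± 0.10 (adjusted p = 5.26e-05) in Txnip-/-, and the genotypes overlapped at TN. Pcna, the sliding clamp of DNA polymerase, stood at 27.05, 29.04 and 25.96 TPM in RT WT, 32.9, 28.5 and 32.02 in RT Txnip-/-, 34.1, 39.2 and 42.3 in TN WT and 36.4, 38.9 and 41.3 in TN Txnip-/-. Pcna rose by 0.48 ± 0.09 (adjusted p = 0.0012) in WT, and in Txnip-/- its value of 0.31 ± 0.09 (adjusted p = 0.0109) was under the fold threshold. With median centring the WT value was 0.29, also under it. Mcm7, Rrm1, the large reductase subunit, and Tyms, which makes thymidylate, were not called in any comparison. Their temperature values lay between 0.11 for Rrm1 and Tyms in Txnip-/- and 0.25 for Mcm7 in WT.

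The mitosis genes had low levels, so few of them reached the main test, but on recovered reads 11 of 12 rose with temperature in WT and 12 of 12 in Txnip-/-, beside 28.5% and 32.1% of all genes in that test. Without Aurkb and Bub1, which held 3 to 9 and 5 to 16 reads per library in RT WT, the count in WT was 9 of 10. Summed over the 12 genes, the level was 3.93 to 5.58 TPM in RT WT, 4.40 to 6.25 in RT Txnip-/-, 9.42 to 13.9 in TN WT and 16.4 to 17.2 in TN Txnip-/-. The sums did not overlap between temperatures, nor between genotypes at TN, and they overlapped between genotypes at RT. Mki67, whose product coats mitotic chromosomes and which marks cycling cells, stood at 0.115, 0.127 and 0.217 TPM in RT WT, 0.231, 0.267 and 0.386 in RT Txnip-/-, 0.675, 1.12 and 0.589 in TN WT and 1.32, 1.43 and 1.37 in TN Txnip-/-. These levels rest on 26 to 38 reads per library in RT WT and 210 to 295 in TN Txnip-/-. The 4 groups of Mki67 followed each other without overlap, from RT WT over RT Txnip-/- and TN WT to TN Txnip-/-. On recovered reads Mki67 rose with temperature by 2.29 ± 0.32 (adjusted p = 0.00026) in WT and 2.18 ± 0.25 (adjusted p = 3.47e-05) in Txnip-/-.

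Top2a, the topoisomerase that untangles sister chromosomes, stood at 0.422, 0.299 and 0.478 TPM in RT WT, 0.495, 0.407 and 0.632 in RT Txnip-/-, 1.07, 1.58 and 1.305 in TN WT and 2.25, 2.12 and 2.23 in TN Txnip-/-. In the main test it rose with temperature by 0.72 ± 0.11 (adjusted p = 0.000453) in WT and 1.08 ± 0.11 (adjusted p = 2.63e-05) in Txnip-/-. Aurka, a kinase of the spindle poles, stood at 0.994, 0.748 and 1.31, 0.847, 0.699 and 0.967, 1.44, 2.33 and 1.75 and 1.91, 1.89 and 1.97 TPM in the 4 groups in the same order. It rose by 0.49 ± 0.13 in WT and 0.67 ± 0.13 in Txnip-/-. Bub1b, a kinase of the spindle checkpoint, stood at 0.8200, 0.412 and 0.884, 1.22, 0.651 and 0.873, 1.44, 2.14 and 1.71 and 1.96, 2.01 and 1.897 TPM. It rose by 0.70 ± 0.15 and 0.64 ± 0.15. The TN libraries of Top2a, Aurka and Bub1b lay above the RT libraries in both genotypes.

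Birc5, or survivin, which guides the chromosomal passenger complex, stood at 0.6000, 0.565 and 0.596 TPM in RT WT, 0.651, 0.328 and 0.775 in RT Txnip-/-, 0.963, 1.22 and 1.49 in TN WT and 1.83, 3.13 and 2.09 in TN Txnip-/-. It rose by 0.48 ± 0.16 (adjusted p = 0.0245) in WT and 1.07 ± 0.16 (adjusted p = 0.00022) in Txnip-/-. The WT call was lost on recovered reads, where the value was 0.88 ± 0.35 (adjusted p = 0.0557), and without RT WT replicate 2 or 3 or TN WT replicate 2 or 3, where the values lay between 0.40 and 0.48. Cdc20, which activates the anaphase-promoting complex, stood at 0.403, 0.334 and 0.519, 0.601, 0.417 and 0.554, 1.05, 0.876 and 1.01 and 1.71, 1.54 and 1.81 TPM in the 4 groups. It was under the filter in the temperature comparisons, and on recovered reads it rose by 1.14 ± 0.25 (adjusted p = 0.00302) in WT and 1.60 ± 0.22 (adjusted p = 0.000117) in Txnip-/-. The other 6 mitosis genes are the kinases Aurkb, Bub1 and Plk1, the motor proteins Cenpe and Kif11, and the spindle assembly factor Tpx2. On recovered reads these 6 rose by 1.10 (Kif11) to 1.71 (Aurkb, under the minimum of reads in RT WT) in WT and by 1.18 (Plk1) to 1.97 (Tpx2) in Txnip-/-.

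Within the TN WT group, replicate 2 held the highest level of 9 of the 12 mitosis genes and of 6 of the 7 cyclins and kinases of S and M phase. In RT WT and RT Txnip-/-, replicate 3 held the highest level of 8 of the 12 mitosis genes.

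**Figure D3:**
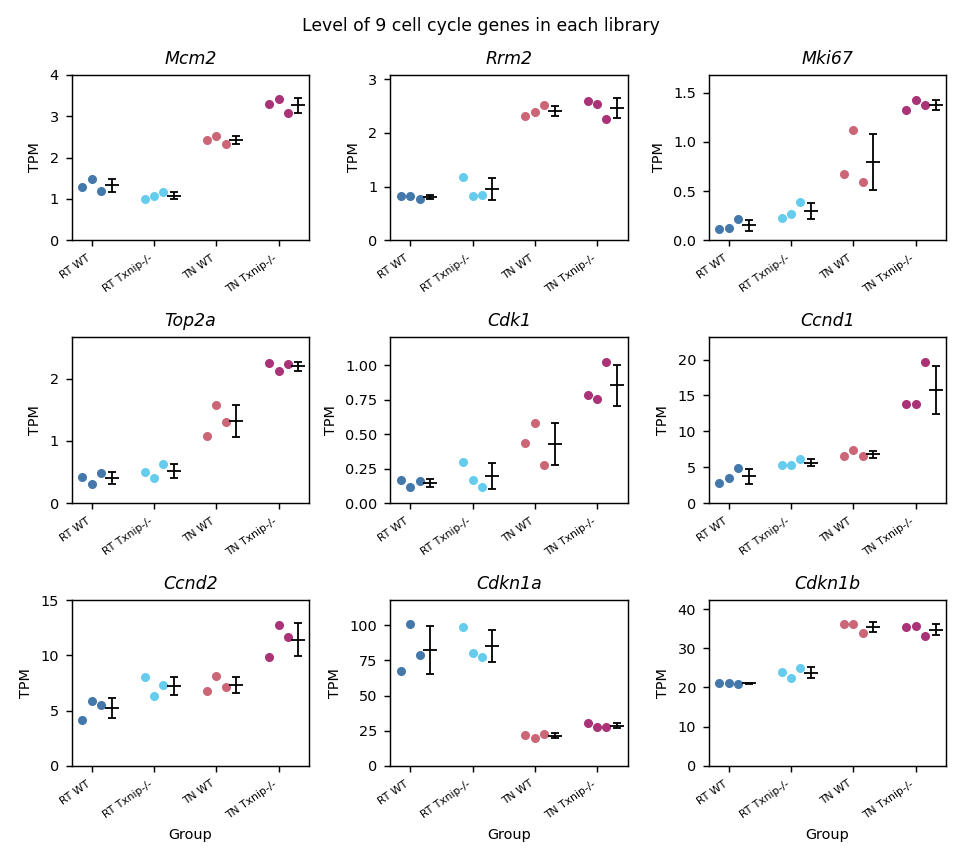
TPM of 9 of the genes in each library (points, 3 per group) with the group mean and SD (bars to the right of the points); each panel starts at 0 and has its own scale. Mcm2, Rrm2, Mki67, Top2a and Cdk1 lie higher at TN, Ccnd1 is highest in TN Txnip-/-, and Cdkn1a is lower at TN in both genotypes.

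Of the cyclins and kinases of S and M phase, Cdk1, the kinase that starts mitosis, was among the lowest, at 0.165, 0.115 and 0.159 TPM in RT WT, 0.301, 0.1700 and 0.119 in RT Txnip-/-, 0.438, 0.5800 and 0.276 in TN WT and 0.787, 0.753 and 1.02 in TN Txnip-/-. On recovered reads it rose with temperature by 1.41 ± 0.37 (adjusted p = 0.0091) in WT and 2.11 ± 0.33 (adjusted p = 0.000258) in Txnip-/-. Its mitotic partners Ccnb1 and Ccnb2 rose by 1.07 ± 0.31 and 1.19 ± 0.38 in WT and by 1.76 ± 0.33 and 1.49 ± 0.33 in Txnip-/-. Ccna2, the cyclin of S phase and early mitosis, stood at 1.87, 1.88 and 1.98 TPM in RT WT, 2.201, 2.07 and 2.61 in RT Txnip-/-, 2.54, 3.28 and 3.06 in TN WT and 4.23, 4.01 and 3.72 in TN Txnip-/-, without overlap between the temperatures of a genotype or the genotypes at TN. It rose with temperature by 0.44 ± 0.10 (adjusted p = 0.00341) in WT and 0.60 ± 0.10 (adjusted p = 0.00041) in Txnip-/-.

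The E-type cyclins, which start S phase with Cdk2, rose in WT but were not called in Txnip-/-. Ccne1 stood at 1.75, 1.03 and 1.81 TPM in RT WT, 2.54, 1.96 and 2.27 in RT Txnip-/-, 2.17, 2.37 and 2.83 in TN WT and 2.05, 2.79 and 2.05 in TN Txnip-/-. Ccne2 stood at 1.85, 2.19 and 2.35, 2.12, 2.28 and 2.53, 2.62, 3.25 and 3.12 and 2.63, 2.33 and 2.71 TPM. Their temperature values were 0.46 ± 0.14 (adjusted p = 0.02) and 0.35 ± 0.10 (adjusted p = 0.0123) in WT and 0.02 ± 0.14 (adjusted p = 0.941) and 0.10 ± 0.10 (adjusted p = 0.404) in Txnip-/-. The difference between the genotypes was not called for either gene, at -0.45 ± 0.20 (adjusted p = 0.398) for Ccne1 and -0.25 ± 0.14 (adjusted p = 0.487) for Ccne2. The WT call of Ccne1 was lost without RT WT replicate 2 (0.31) or TN WT replicate 3 (0.38), and that of Ccne2 without RT WT replicate 1 (0.29) or TN WT replicate 2 (0.31). Median centring also ended both calls (0.28 for Ccne1 and 0.17 for Ccne2), and upper-quartile scaling that of Ccne2 (0.28). Cdk2, at 11.2 to 15.5 TPM, was not called, with values of -0.11 ± 0.11 in WT and -0.19 ± 0.11 in Txnip-/-.

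Of the D-type cyclins, which carry growth signals to the cell cycle, Ccnd1 and Ccnd2 moved with temperature and, at TN, with genotype. Ccnd1 stood at 2.81, 3.56 and 4.904 TPM in RT WT, 5.33, 5.32 and 6.19 in RT Txnip-/-, 6.499, 7.37 and 6.58 in TN WT and 13.8, 13.8 and 19.7 in TN Txnip-/-. The 4 groups followed each other in that order without overlap. Ccnd1 rose with temperature by 0.74 ± 0.16 (adjusted p = 0.0031) in WT and 1.33 ± 0.16 (adjusted p = 6.73e-05) in Txnip-/-. Ccnd2 stood at 4.19, 5.91 and 5.55 TPM in RT WT, 8.04, 6.36 and 7.31 in RT Txnip-/-, 6.74, 8.17 and 7.11 in TN WT and 9.88, 12.8 and 11.6 in TN Txnip-/-. It rose with temperature by 0.43 ± 0.13 (adjusted p = 0.0157) in WT and 0.59 ± 0.13 (adjusted p = 0.00262) in Txnip-/-, and the RT Txnip-/- libraries overlapped with TN WT. The WT call of Ccnd2 was lost without RT WT replicate 1 (0.31) or TN WT replicate 2 (0.36). Ccnd3 and Cdk4, at 46.8 to 67.5 and 41.4 to 51.4 TPM, were not called with temperature, with values between -0.05 ± 0.07 and 0.12 ± 0.08.

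Cdkn1a, which encodes p21, the inhibitor best known as a target of p53, was the 1 gene that fell with temperature among the 26 tested, and also among all 37 on recovered reads. It stood at 67.8, 101 and 78.6 TPM in RT WT, 98.7, 80.1 and 77.4 in RT Txnip-/-, 22.2, 19.5 and 22.6 in TN WT and 30.5, 27.8 and 27.7 in TN Txnip-/-. Every TN library lay under every RT library. The log2 fold change was -1.88 ± 0.13 (adjusted p = 1.27e-05) in WT and -1.53 ± 0.13 (adjusted p = 1.25e-05) in Txnip-/-. On the log2(TPM + 1) scale these were the largest changes among the 26 tested genes, but not on recovered reads. There Mki67 (2.29) changed by more than Cdkn1a (-2.03) in WT, and Mki67 (2.18), Cdk1 (2.11), Top2a (2.04), Tpx2 (1.97), Birc5 (1.95), Ccnb1 (1.76), Cenpe (1.69) and Aurkb (1.68) by more than Cdkn1a (-1.63) in Txnip-/-. Cdkn1b, which encodes p27, moved the other way, at 21.1, 21.2 and 20.97 TPM in RT WT, 23.9, 22.5 and 25.1 in RT Txnip-/-, 36.3, 36.2 and 33.8 in TN WT and 35.5, 35.7 and 33.2 in TN Txnip-/-. It rose by 0.72 ± 0.06 (adjusted p = 2.82e-05) in WT and 0.53 ± 0.06 (adjusted p = 4.19e-05) in Txnip-/-, with no overlap between temperatures. The 2 inhibitors changed in opposite directions. Cdkn1c (p57), at 30.8 to 44.0 TPM, and Cdkn2c (p18), at 56.4 to 122 TPM, were not called with temperature in the main test. The value of Cdkn1c was 0.04 ± 0.11 in WT, which turned negative under other scalings, and -0.16 ± 0.11 in Txnip-/-, and that of Cdkn2c was -0.34 ± 0.22 and -0.28 ± 0.22.

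**Figure D4:**
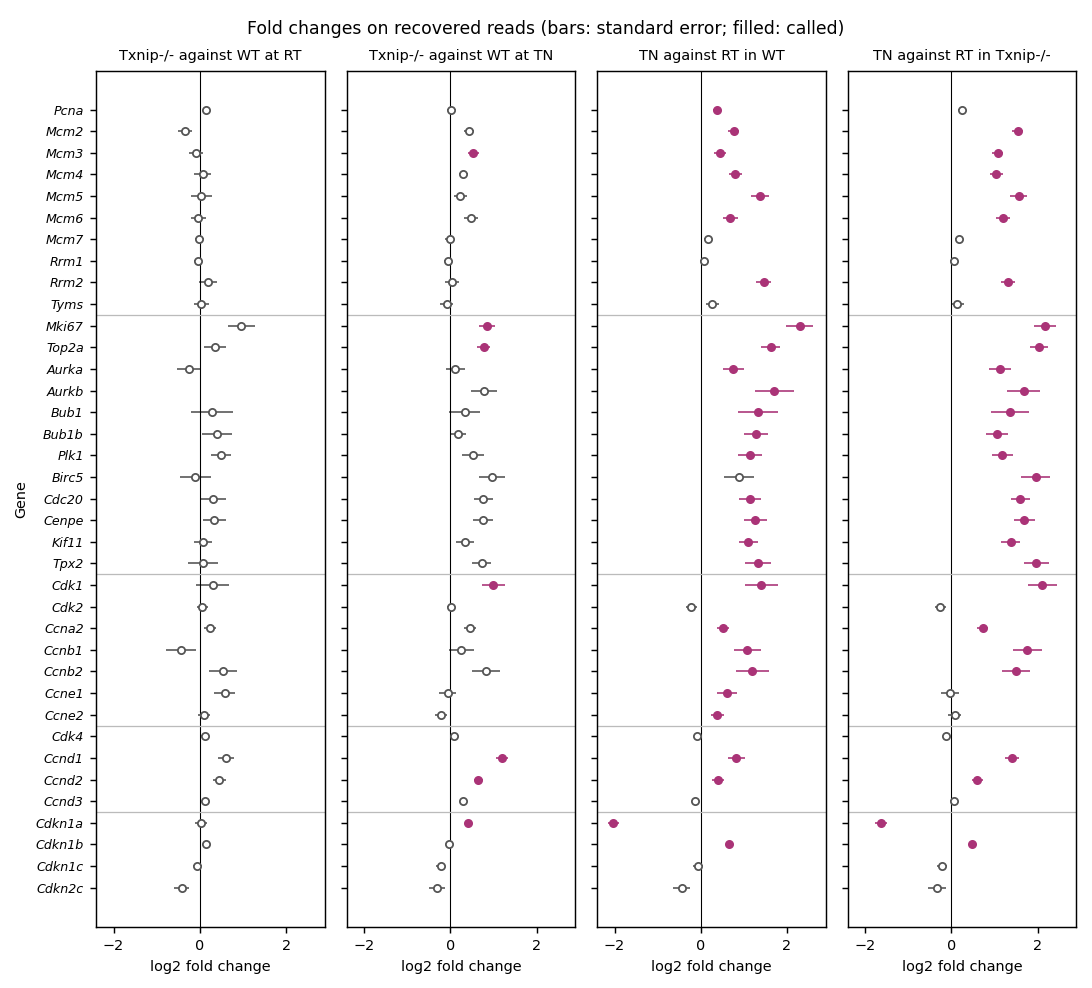
Log2 fold change of each gene (rows, grouped by role) on recovered reads in the 4 comparisons, with bars for the standard error; filled points were called. The mitosis genes lie to the right in both temperature panels, Cdkn1a lies to the left there, and no gene is filled in the genotype panel at RT.

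At RT, none of the genes tested was called between Txnip-/- and WT. Of the 20 genes that passed the filter, 0 were called, where 1.49% of 11980 genes were, and 4 had an unadjusted p under 0.05 in limma, which is 20% of them beside 16% of all genes. On recovered reads, 0 of 36 were called (1.8% of 14479 genes), with 5 at an unadjusted p under 0.05 (13.9% beside 15.8%); Aurkb held too few reads to be tested. The 4 genes of the main test were Ccnd1 with 0.50 ± 0.16 (adjusted p = 0.199), Ccnd2 with 0.41 ± 0.13 (adjusted p = 0.198), Ccne1 with 0.38 ± 0.15 (adjusted p = 0.287) and Cdkn1b with 0.17 ± 0.06 (adjusted p = 0.264). The knockout libraries lay above all WT libraries for these 4 genes, and for 9 of the 36 genes with a mean of at least 10 reads, where 15% of 14479 genes did so. Mcm2 was the 1 gene with all knockout libraries lower (7.18% of all genes), at -0.17 ± 0.10 (adjusted p = 0.498). Without RT WT replicate 3, Cdkn2c was called lower in the knockout, by -0.62 ± 0.07 (adjusted p = 0.0228) against -0.37 ± 0.19 (adjusted p = 0.399) with all libraries. The 5 genes on recovered reads were Ccnd1, Ccnd2, Ccne1, Cdkn2c and Mki67, the last at 0.96 ± 0.31 (adjusted p = 0.185).

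At TN, 6 of the 30 genes that passed the filter were higher in Txnip-/- and 0 were lower, where 6.49% of 12891 genes rose and 2.17% fell. Ccnd1 led, with 1.08 ± 0.14 (adjusted p = 0.00608) and a mean TPM 2.31 times that of WT. The others were Ccnd2 with 0.57 ± 0.11 (adjusted p = 0.0188), Top2a with 0.47 ± 0.12 (adjusted p = 0.0441), Cdc20 with 0.44 ± 0.11 (adjusted p = 0.0453), Cdkn1a with 0.41 ± 0.08 (adjusted p = 0.0214) and Mcm3 with 0.40 ± 0.09 (adjusted p = 0.0341). Cdc20, with a mean of 0.98 TPM in TN WT, passed the filter through the knockout libraries, where it is high, and so did the uncalled Mki67 and Ccnb2. Among genes with a mean of at least 1 TPM in both genotypes, 5 of 27 members were higher (6.01% of 12529 genes). The 3 knockout libraries lay above the 3 WT libraries for each of the 6. On recovered reads, 7 of 37 genes were higher (6.97% of 15494 genes) and 0 were lower (2.27%). Cdk1 with 1.00 ± 0.27 (adjusted p = 0.0449) and Mki67 with 0.85 ± 0.19 (adjusted p = 0.02) were added, and Cdc20, at 0.77 ± 0.22 (adjusted p = 0.0528), was not called. Counting overlap alone, the knockout libraries lay above all WT libraries for 18 of the 37 genes, where 17.2% of 15494 genes did so, and under them for 0, where 12% did. These 18 held 7 of the 12 mitosis genes, 4 of the 10 replication genes and all 3 D-type cyclins.

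The calls at TN other than that of Ccnd1 depended on single libraries. Ccnd1 kept its call in all 16 alternatives, with values between 0.78 and 1.19. The count of 6 became 2 without TN WT replicate 1, 3 without TN WT replicate 2, 3 without TN WT replicate 3, 2 without TN Txnip-/- replicate 1, 1 without TN Txnip-/- replicate 2 and 3 without TN Txnip-/- replicate 3. Cdc20 lost its call in 13 of 14 alternatives, Mcm3 and Top2a in 9 of 15 each, Cdkn1a in 5 of 16 and Ccnd2 in 4 of 16, and none of the 6 changed direction. The 24 genes tested but not called at TN ran from -0.31 (Cdkn2c) to 0.58 (Birc5). The values furthest above 0 were those of Birc5 with 0.58 ± 0.17 (adjusted p = 0.0687), Mki67 with 0.42 ± 0.14 (adjusted p = 0.109), Ccnb2 with 0.40 ± 0.16, Mcm6 with 0.37 ± 0.13, Ccna2 with 0.34 ± 0.10 and Mcm2 with 0.32 ± 0.09. Pcna 0.02 ± 0.09, Rrm2 0.02 ± 0.09, Ccne1 -0.07 ± 0.13, Cdkn1b -0.03 ± 0.07 and Cdk4 0.07 ± 0.06 lay near 0, and Cdkn1c and Cdkn2c were at -0.22 ± 0.10 (adjusted p = 0.226) and -0.31 ± 0.20 (adjusted p = 0.393).

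Whether the effect of Txnip loss differed between the temperatures was tested as an interaction. None of the 26 genes was called (0.00801% of 12486 genes, 1 gene, were), and 6 had an unadjusted p under 0.05 in limma (23.1%, beside 12.6% of all genes). These were Mcm2 with 0.48 ± 0.12 (adjusted p = 0.171), Mcm3 with 0.45 ± 0.14 (adjusted p = 0.242), Ccnd1 with 0.59 ± 0.23 (adjusted p = 0.327), Birc5 with 0.59 ± 0.22 (adjusted p = 0.319), Top2a with 0.36 ± 0.16 (adjusted p = 0.366) and Cdkn1b with -0.19 ± 0.08 (adjusted p = 0.369), where a positive value means a larger knockout-to-WT ratio at TN. On recovered reads 0 of 37 were called (0.106% of 15067 genes), with 4 at an unadjusted p under 0.05 (10.8%, beside 10.3%). The genotype calls at TN, more in number than at RT, were not matched by a called difference between the temperatures.

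The other genes of the pathway, 171 in 5 lists chosen by function, were read beside the 37. With temperature, 64 of the 109 that passed the filter rose and 3 fell in WT, and 57 rose and 4 fell in Txnip-/-, beside the shares of all genes given above. Some of these too passed through the TN libraries. Among those with a mean of at least 1 TPM at both temperatures, 54 of 97 rose and 3 fell in WT, and 45 of 96 rose and 4 fell in Txnip-/-. With median centring, 37 of the 109 rose and 4 fell in WT, and 38 rose and 9 fell in Txnip-/-. Of the 39 tested replication genes, 28 rose in WT and 20 in Txnip-/-, among them the clamp loader subunit Rfc3 (1.08 and 1.09) and the fork protein Timeless (1.22 and 1.16), the 2 largest in both genotypes. Small called rises were those of Orc4 (0.34) and Prim2 (0.36) in WT and of Rfc1 (0.36) in Txnip-/-. Of the 32 tested mitosis genes, 18 rose and 1 fell in WT and 24 rose and 1 fell in Txnip-/-. Hmgb2 (1.11) and Racgap1 (0.91) rose most in WT, and Ube2c (1.20) and Racgap1 (1.06) in Txnip-/-, where Racgap1 in both genotypes and Ube2c in Txnip-/- had means under 1 TPM at RT. Cdc25a, a phosphatase that activates Cdk2 at the start of S phase, fell by 0.70 and 0.86, and the smallest rises were Wee1 (0.43) in WT and Cenpn (0.36, from a mean of 0.990 TPM at RT) in Txnip-/-.

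Among 16 tested E2F, Rb and DREAM regulators, 6 rose and 1 fell in WT and 2 rose and 2 fell in Txnip-/-, where 31.4% and 30.9% of all genes rose, so that the share in WT was near that of all genes and the share in Txnip-/- was under it. Myc, a growth factor-induced transcription factor, rose by 1.61 and 1.37, and Rbl1, the Rb relative p107, by 0.78 and 0.97. Tfdp1, the partner of E2F, changed by -0.40 and -0.39, E2f5 by -0.42 in Txnip-/-, and Tfdp2 by 0.41 in WT. Among 8 other regulators of cyclin-dependent kinases, 5 rose in WT and 3 in Txnip-/-, with Cdkn2b (1.02 and 1.32, from means under 1 TPM at RT), the inhibitor p15, and Mnat1 (1.02 and 0.80), part of the kinase that activates them, the largest and Ccnh (0.49 and 0.34) and Cdk6 (0.46 in WT) the smallest. The list of p53 targets, which were chosen apart from Cdkn1a, held rises and falls: 7 of 14 rose and 1 fell in WT, and 8 rose and 1 fell in Txnip-/-. Gadd45a rose by 2.40 and 2.92 and Plk2 by 1.69 and 1.91, while Sesn2 fell by 1.78 and 1.68, and the smallest rises were Tnfrsf10b (0.52) in WT and Rrm2b (0.37) in Txnip-/-.

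With genotype, the share of these genes called was 2.06% at RT, beside 1.49% of all genes, and 0.84% at TN, beside 8.66%. At RT, 2 of 97 were called, E2f5 with 0.41 (11.1 to 15.1 TPM in the group means) and the p53 target Trp53inp1 with 1.56 (6.38 to 20.02 TPM), and 17 had an unadjusted p under 0.05 (17.5%, beside 16% of all genes). At TN, 1 of 119 was called, Gmnn, which encodes the licensing inhibitor geminin, with -0.55 (45.9 to 30.9 TPM), and 28 had an unadjusted p under 0.05 (23.5%, beside 25.6%). Leaving out single libraries ended the call of E2f5 in 6 of 6 cases (adjusted p of 0.074 to 0.134 in limma), that of Trp53inp1 without RT WT replicate 2 or any 1 RT Txnip-/- library (0.0249 to 0.119 over the 6 cases), and that of Gmnn without TN WT replicate 3 or any 1 TN Txnip-/- library (0.0272 to 0.0838). On recovered reads the counts were 1 of 155 at RT (0.645%, beside 1.8% of all genes) and 3 of 168 at TN (1.79%, beside 9.24%). None was called in the interaction, with 14 of 109 at an unadjusted p under 0.05 (12.8%, beside 12.6%), and on recovered reads 0 of 166, with 21 at an unadjusted p under 0.05.

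Markers of other cell types moved with the same groups, and in bulk tissue fewer cells of a type and less RNA per cell cannot be told apart. The summed level of 12 macrophage markers was 84.1 to 98.8 TPM in RT WT, 139 to 223 in RT Txnip-/-, 180.3 to 312 in TN WT and 505 to 716 in TN Txnip-/-. With temperature 10 of the 12 rose in WT and 11 in Txnip-/-, but 2 of the 12 had a mean under 1 TPM at RT. Among the 10 with at least 1 TPM at both temperatures, 8 rose in WT and 9 in Txnip-/-. With genotype 3 of 10 tested rose at RT and 11 of 12 at TN. Of all genes with at least 1 TPM in both groups compared, 29.3% rose with temperature in each genotype. With genotype 0.588% of such genes were higher at RT and 6.01% at TN. The sum of 8 T and NK cell markers was 2.69 to 3.67, 5.47 to 7.52, 4.16 to 12.3 and 18.8 to 25.9 TPM in the same order, and that of 7 B and plasma cell markers was 1.77 to 3.59, 3.13 to 4.37, 5.89 to 8.13 and 18.0 to 26.2. With genotype at TN, 3 of 7 tested T and NK cell markers rose, or 1 of the 4 with a mean of at least 1 TPM in both genotypes, and 2 of 3 tested B and plasma cell markers did. For 8 markers of fibroblasts and preadipocytes the sum was 251 to 293, 299 to 339, 399 to 485 and 799 to 820 TPM, and 5 of 7 tested rose with genotype at TN. For 8 endothelial markers it was 284 to 304, 234 to 282, 347 to 433 and 384 to 427, with 1 of 8 called higher with genotype at TN. With temperature, 5 of 8 endothelial markers rose in WT and 8 of 8 in Txnip-/-, and 5 and 6 of 7 tested fibroblast and preadipocyte markers did. The T and NK cell markers were mostly under 1 TPM at RT and are read on recovered reads. Among those with a mean of at least 10 reads at both temperatures, 1 of 6 rose in WT and 8 of 8 in Txnip-/-. For B and plasma cell markers these counts were 4 of 6 and 5 of 5. Of all genes at that minimum, 27.1% rose in WT and 31.6% in Txnip-/-, so the T and NK cell share in WT was under that of all genes.

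The sum of 9 brown adipocyte markers was lower from group to group in the same order, at 13422 to 13862, 10308 to 12702, 8506 to 9847 and 5666 to 6256 TPM. None of these markers was at 0 in any library. With genotype 1 of the 9 fell at RT and 5 at TN. With temperature 4 fell in WT and 6 in Txnip-/-, while 1 rose in WT. Of all genes with at least 1 TPM in both groups compared, 0.664% fell with genotype at RT and 2.17% at TN. With temperature 6.58% of such genes fell in WT and 8.39% in Txnip-/-, and 29.3% rose in WT. The sum of 5 neutrophil markers was 1.11 to 3.80, 1.71 to 3.22, 5.54 to 8.33 and 6.77 to 16.6 TPM, and Ly6g, a defining one, was at 0 in 9 of 12 libraries. For 6 mural cell markers it was 270 to 288, 275 to 294, 313 to 350.0 and 329 to 336 TPM, for 4 Schwann cell markers 6.67 to 38.4, 6.02 to 23.1, 11.7 to 18.0 and 13.5 to 33.6, for 3 erythroid markers 550.3 to 597, 394 to 549, 453 to 826 and 327 to 974, and for 8 skeletal muscle markers 75.5 to 79.3, 70.7 to 106, 76.2 to 86.5 and 48.4 to 62.4. Myl1, at 45.0 to 76.6 TPM, made up most of the muscle sum, and the other muscle markers moved apart from it. Of 6 tested, 5 were higher in RT Txnip-/- than in RT WT (median log2 fold change of the 6, 2.26). But 4 of the 6 had a mean under 1 TPM in RT WT. Of the 2 muscle markers at 1 TPM or more in both genotypes, 1 was called higher. With temperature in Txnip-/-, 5 of 6 fell, or 3 of the 4 with a mean of at least 1 TPM at both temperatures. Ckm, the muscle creatine kinase, stood at 0.032 to 0.159 TPM in RT WT, 3.75 to 9.32 in RT Txnip-/-, 0.144 to 2.895 in TN WT and 0.160 to 2.33 in TN Txnip-/-. Tnnt3 of muscle and Mzb1 of plasma cells were each at 0 in 1 library. The part of any of these cell types in the levels of the 37 genes was not tested.

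**Figure D5:**
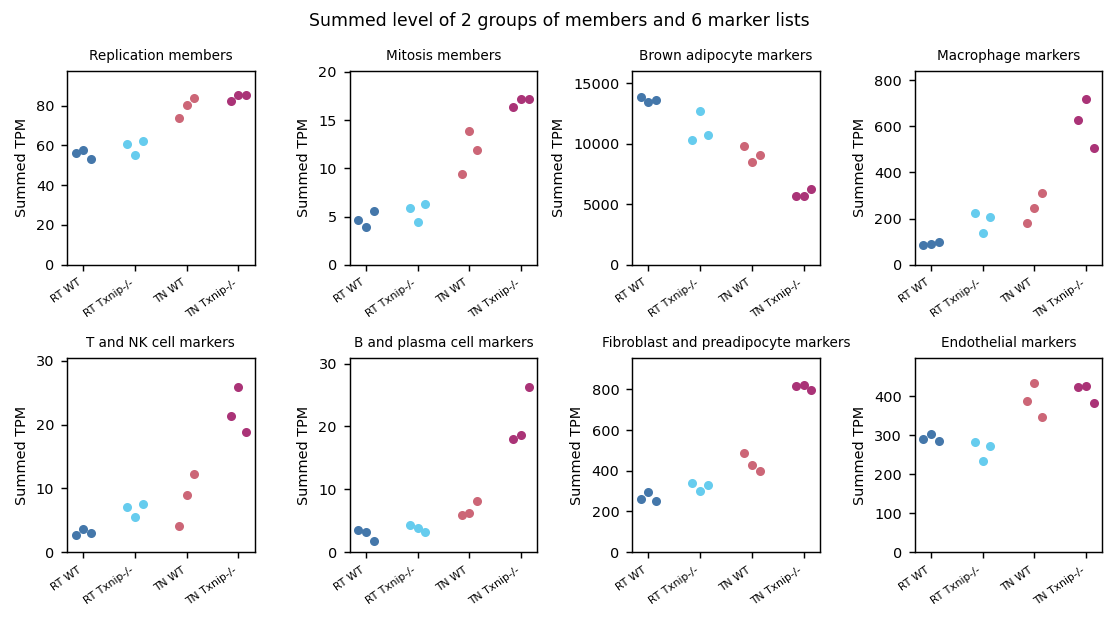
Summed TPM of the replication and mitosis genes and of 6 lists of cell type markers in each library (points, 3 per group); each panel starts at 0. The mitosis, macrophage, T and NK cell, B and plasma cell and fibroblast sums are highest in TN Txnip-/-, and the brown adipocyte sum is lowest there.

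Some members overlap a neighbour, so that reads could be shared. On build mm10, Ccnd1 (chr7:144929931-144939925, minus strand) shares 1100 exonic bases with LTO1 on the other strand in GENCODE M21, and whether the counting used strand is not given in the sources used here. LTO1 stood at 10.5 to 14.9 TPM in RT WT, 15.4 to 17.6 in RT Txnip-/-, 11.8 to 13.7 in TN WT and 14.2 to 15.1 in TN Txnip-/-. Like Ccnd1, LTO1 lay higher in the knockout without overlap at both temperatures, as did 15% of 14479 genes at RT and 17.2% of 15494 at TN. Unlike Ccnd1, LTO1 did not lie higher at TN than at RT. Ccna2 shares 510 bases with Exosc9, which stood at 13.6 to 13.9 TPM in RT WT and 16.7 to 19.9 in TN WT. Ccnd2 shares 368 bases with 9330179D12Rik, which was at 0.187 to 0.660 TPM in TN WT and 0.752 to 0.996 in TN Txnip-/-. Cdc20 shares 53 bases with Elovl1, which was at 9.97 to 11.2 and 12.2 to 15.3 TPM in the same groups. These 3 neighbours lie on the other strand and were higher without overlap in these comparisons, in the direction of the member. So were 48.8% of 15041 genes with temperature in WT and 17.2% of 15494 with genotype at TN. Between the genotypes at TN, Exosc9 overlapped (16.7 to 19.9 and 18.8 to 20.4 TPM) where Ccna2 did not. Ints8, which shares 609 bases with Ccne2, did not follow it, at 6.27 to 9.01 TPM in RT WT and 6.82 to 8.32 in TN WT. On the same strand, Top2a shares 122 bases with Gm23451, and Mcm7 shares 84 with Mir25 and 88 with Mir93. Ccnd2 also shares 372 bases with Gm43126 on the other strand. The part of shared reads was not tested. Ccnd3, Cdk2, Cdk4, Cdkn1a, Cdkn1c, Mcm7 and Plk1 also overlap a gene on the other strand. Pcna, Tyms, Ccnb1, Ccnb2 and Ccnd3 have copies named as pseudogenes in the annotation, so their reads may be split.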

How the data were processed

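BAT RNA from 12 libraries in 4 groups of 3 was poly-A selected and sequenced on NEBNext Ultra II libraries. Per the labels and the study's methods, the authors aligned reads to mm10 with STAR 2.7.5a and counted exons with HOMER 4.11.1, keeping 1 transcript per gene, and deposited TPM for all 12 libraries. The authors also deposited log2-type values per temperature (the transform is not given in the sources used here), used only as an alternative, with columns of their own fold changes and p-values, which were not used. For 9 members (RT) and 10 (TN) those tables list another transcript than the TPM table.

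From the deposited TPM, log2(TPM + 1) was tested with limma 3.58.1 (R 4.3.3; moderated by trend) for genes with mean TPM of at least 1, with Benjamini-Hochberg adjustment over all tested genes; a call needed a fold above 1.25 or below 0.8 and adjusted p under 0.05, and for the interaction adjusted p under 0.05 alone. Genotype was tested within the 6 libraries of a temperature, and temperature and the interaction in 1 fit of all 12. A count test had been foreseen, but the files hold TPM. TPM times length is a whole multiple of 1 value per library: all 76430 of 76430 values of 1 to 20 reads (100%) came out whole within 0.2 reads, so reads (19192444 to 29230425 per library, of 29934173 to 47439764 in the headers) were recovered and tested with limma-voom for genes with a mean of at least 10 reads. Depth per library limits the low genes most. The scripts were tested on simulated data. Positions are those of the mm10 table, overlaps are from GENCODE M21 and promoters from RefSeq (GRCm38.p6).

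The members, the lists and the pathway and marker genes were chosen with earlier results of these data known. Described with every library were the members called in at least 1 pairwise comparison of the main test; named beside them were the uncalled members with the largest and smallest change of each role, Mki67, Top2a, Pcna, Cdk1, Ccnd1, Cdkn1a, Cdkn1b and Cdkn1c, and the 2 largest and 2 smallest called changes of each pathway list, of which 1 is not reported here. Other low members, the overlapping neighbours, Ly6g, Myl1, Ckm, Tnnt3 and Mzb1 were named after their values were seen. Alternatives were another pseudocount (0.1), filter (every gene above 0; at least 5 TPM), scaling, fit and call rule, a replicate block, and leaving out each library.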

Additional observations from a re-analysis of the deposited data

How the results depend on the processing

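The lowest mitosis genes rest on few reads per library, and scaling and single libraries ended calls of genes with many reads too, such as that of Pcna in WT with median centring. Of the calls with temperature, all 15 in Txnip-/- and 10 of the 18 in WT were kept in every alternative that tested the gene. Of the 6 calls with genotype at TN only that of Ccnd1 was. None of these called genes changed direction in any alternative. The cause of a changed count was not tested, except that a higher filter tests fewer genes and that recovered reads and lower filters test more.

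Counts are given below for the members and then for the other cell cycle genes. With temperature in WT, the counts of 18 and 67 became 5 and 37 at a mean of at least 5 TPM, 10 and 41 with median centring, 28 and 104 with limma-voom on recovered reads, and 29 and 117 with every gene above 0 and log2(TPM + 0.1). With temperature in Txnip-/-, the counts of 15 and 61 became 4 and 29 at a mean of at least 5 TPM, 25 and 94 with every gene above 0, 26 and 106 on recovered reads, and 26 and 112 with every gene above 0 and log2(TPM + 0.1). With genotype at TN, the count of 6 members became 2 with every gene above 0, 3 at a mean of at least 5 TPM, and 3 with every gene above 0 and log2(TPM + 0.1). There the count of 1 other gene became 0 with every gene above 0, 2 with no fold threshold, 2 with upper-quartile scaling, 3 on recovered reads, 3 with all 12 libraries in 1 fit, 4 with median centring and 7 at an adjusted p under 0.1. With genotype at RT, the count of 2 other genes became 5 at an adjusted p under 0.1, 1 on recovered reads, 1 on the log-scale values of the authors, and 0 with every gene above 0 at either pseudocount. In the interaction, 1 other gene was called at an adjusted p under 0.1.

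Leaving out 1 library at a time gave 0 to 1 members and 0 to 1 other genes with genotype at RT, 1 to 3 and 0 to 2 with genotype at TN, 15 to 18 and 58 to 73 with temperature in WT, and 15 to 16 and 55 to 64 with temperature in Txnip-/-.

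A replicate block gave 3 members and 3 other genes with genotype at TN, and 1 other gene at RT. It rests on a number only: deviations of same-numbered libraries from their group means correlated with r of 0.297, -0.0221 and 0.21 between the genotypes at RT, 0.042, 0.0228 and -0.0362 at TN, 0.172, -0.132 and 0.106 between the temperatures in WT, and 0.0334, -0.0282 and -0.051 in Txnip-/-. Libraries of different numbers were not compared in this way, so these values cannot tell whether the numbers pair the libraries.

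Among the called values and those of Mki67, Top2a, Pcna, Cdk1, Ccnd1, Cdkn1a, Cdkn1b and Cdkn1c, directions turned only where there was no call. Pcna with genotype at TN was -0.021 with median centring and -0.00156 on the values of the authors, and -0.0678 to 0.0842 without single libraries. Cdkn1c with temperature in WT was -0.057 with upper-quartile scaling, -0.14 with median centring and -0.062 on recovered reads, and -0.0678 to 0.112 without single libraries. Without single libraries, Cdkn1a at RT ranged from -0.0677 to 0.215, Cdkn1c at RT from -0.13 to 0.049, and Cdkn1b at TN from -0.057 to 0.0082.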
